A study of Mus musculus with 6 samples.

Results

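The genes followed here belong to the immediate early and dissection stress response, in 6 RNA-seq libraries of the newborn mouse inner ear. They are Fos, Fosb, Jun, Junb, Egr1, Atf3, Ier2, Klf4, Klf6 and Dusp1. They were chosen by name, and all 10 were matched by Ensembl identifier among the 39179 genes in the count files. The libraries came from sensory epithelium of wild-type C57Bl/6J mice on postnatal day 0, with males and females pooled. The cochlea, the hearing organ, and the vestibule, the balance organ, each gave 3 libraries, and neither group carried a transgene or received a treatment. RNA for a tissue was pooled from 20 ears of 10 mice, which yielded 2.4 μg for the cochlea and 1.5 μg for the vestibule, and 450 ng went into each library. The sources used here do not say whether the 3 libraries of a tissue came from separate pools, so every p-value measures only the spread between these libraries, which may be technical. They also do not give the time between death and lysis of the tissue.

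Immediate early genes are transcribed within minutes of a stimulus, from factors already present in the cell, and need no new protein. Growth factors, calcium entry, stretch and wounding induce them through MAP kinases acting on serum response factor with its ELK partners, and through CREB bound to cAMP response elements (CREs). Fos, Fosb, Jun, Junb and Atf3 encode basic leucine zipper proteins that pair to form the AP-1 factor and its relatives, Egr1, Klf4 and Klf6 encode zinc finger factors, Ier2 encodes a nuclear protein, and Dusp1 encodes a phosphatase that switches MAP kinases off. The same genes are commonly induced while a tissue is dissected.

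The gene counts were between 24464483 and 33664793 per library, so that 1 CPM (gene counts scaled to a library of the same size, summary lines left out) stands for 24.5 to 33.7 counts. All 6 hair cell markers checked were detected in each library, with summed levels of 201 to 310 CPM in the cochlea and 683 to 916 CPM in the vestibule. Cochlea replicate 3 stood apart in its skeletal muscle markers, which summed to 278 CPM against 4.01 and 7.92 CPM in the other cochlear libraries and 8.64 to 26.2 CPM in the vestibule. Its 5 neuronal markers were all lower than in the other cochlear libraries and summed to 151 CPM against 493 and 434 CPM, with 101 to 309 CPM in the vestibule. Libraries of the same tissue differed by 0.391 to 0.578 in log2 CPM (root mean square over the genes tested) and libraries of different tissues by 1.0 to 1.2. In these bulk libraries, fewer cells of a type and less RNA per cell cannot be told apart.

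The promoters of Fos, Dusp1 and Klf4 are shown because Fos and Dusp1 moved together between the vestibular libraries described next while Klf4 hardly varied. Each sequence holds the 250 bases before the RefSeq transcription start in GRCm38.p6, written 5′ to 3′ on the strand of the gene. Capitals mark the CRE core TGACG on either strand and the TATA box TATAAA. Fos lies on the plus strand (chr12:85473640-85473889), Dusp1 on the minus strand (chr17:26508473-26508722) and Klf4 on the minus strand (chr4:55532476-55532725).
Fos: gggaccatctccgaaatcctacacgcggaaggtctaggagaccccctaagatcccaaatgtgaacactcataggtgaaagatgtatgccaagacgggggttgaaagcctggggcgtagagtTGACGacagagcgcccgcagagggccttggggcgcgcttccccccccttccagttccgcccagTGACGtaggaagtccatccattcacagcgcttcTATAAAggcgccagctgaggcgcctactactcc
Dusp1: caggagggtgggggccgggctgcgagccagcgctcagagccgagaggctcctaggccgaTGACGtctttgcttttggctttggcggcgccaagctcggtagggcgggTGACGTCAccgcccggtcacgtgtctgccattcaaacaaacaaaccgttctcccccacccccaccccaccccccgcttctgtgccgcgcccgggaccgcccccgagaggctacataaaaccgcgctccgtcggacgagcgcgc
Klf4: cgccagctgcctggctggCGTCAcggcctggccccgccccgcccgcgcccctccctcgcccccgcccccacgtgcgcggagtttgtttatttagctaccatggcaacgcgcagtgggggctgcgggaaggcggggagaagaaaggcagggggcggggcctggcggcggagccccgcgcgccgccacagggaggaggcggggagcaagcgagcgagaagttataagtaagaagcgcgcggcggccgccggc

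The Fos sequence holds a CRE core 66 bases before the start and another at 129 bases, with a TATA box at 33 bases. In the Dusp1 sequence a whole CRE, TGACGTCA, begins 143 bases before the start, and the core is read there on both strands, with a further core at 191 bases. Klf4 has a core only at 232 bases. A promoter sequence was used for 8 of the genes, without Egr1 and Ier2. The core was present in 6 of these 8 (Fos, Fosb, Junb, Atf3, Klf4 and Dusp1) and in 17.8% of the 32851 mouse promoters of the same length. Jun and Klf6 held no core. Klf4, which hardly varied, thus held a core, and Klf6, which was raised in vestibule replicate 3 (described below), held none. A link between these motifs and the levels was not tested. The whole CRE was present in 1.55% of all promoters, the AP-1 site TGANTCA in 6.75% and in none of the 8, and the CArG box, to which serum response factor binds, in 1.47% and in none of the 8. The EGR site GCGNGGGCG was present in Fosb and Klf4 and in 4.70% of all promoters. Each motif was searched on both strands, the core and the whole CRE overlap, and a match in letters is a description of this window only.

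Levels were compared between genes per length, as the RPKM deposited by the authors (reads scaled to gene length and library size). In the cochlea the order from high to low was Ier2, Klf4, Jun, Klf6, Egr1, Junb, Dusp1, Fos and Atf3. Ier2 had a mean log2 RPKM of 5.06 ± 0.11 (SD, n = 3), Fos of 0.39 ± 0.90 and Atf3 of -0.998 ± 0.382. The neighbours Jun and Klf6, Klf6 and Egr1, Egr1 and Junb, and Dusp1 and Fos overlapped in their 3 libraries, while the other neighbours did not. In the vestibule Ier2 again led with 4.69 ± 0.14, followed by Jun, Klf6, Klf4, Egr1, Junb, Dusp1, Fos and Atf3. Of these, Jun with Klf6, Klf6 with Klf4, and each neighbour from Egr1 to Fos overlapped. Fosb was not in the RPKM table.

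Among the 14722 genes of that table, Fos lay above 19.0% of genes in the cochlea and above 40.6% in the vestibule. Ier2, by contrast, lay above 89.1% and 84.5%. Of the AP-1 genes examined, the most abundant messages were Jund, a constitutively expressed Jun relative, with a mean log2 RPKM of 4.33 ± 0.03 in the cochlea and 4.70 ± 0.23 in the vestibule, and Jun with 3.21 ± 0.24 and 3.98 ± 0.29. Fosl2, the Fos relative known for slower induction, had 0.20 ± 0.34 and 1.78 ± 0.25, which overlapped Fos itself in each tissue. Atf3, a factor typically silent in unstressed tissue, was the lowest of the 9 genes measured per length.

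The prototype of the family, Fos, had 57, 57 and 183 counts in the cochlea and 254, 195 and 645 counts in the vestibule. These are 2.33, 1.98 and 6.26 CPM in the cochlea and 7.55, 7.59 and 25.3 CPM in the vestibule. Replicate 3 was the highest library in each tissue, at 2.91 times the mean of the other 2 in the cochlea and 3.35 times in the vestibule. The exact Poisson interval (95%, counting error only, which separate libraries usually exceed) was 43.2 to 73.9 for a count of 57 and 157 to 212 for a count of 183. The lowest vestibular library remained above the highest cochlear one.

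Fosb, its close relative, was barely detected, with 4, 9 and 47 counts in the cochlea and 15, 24 and 68 counts in the vestibule. This corresponds to 0.164, 0.313 and 1.61 CPM and to 0.446, 0.935 and 2.67 CPM. As for Fos, replicate 3 was highest in each tissue, but the tissues overlapped. Because only 2 libraries reached 1 CPM, Fosb did not pass the filter on low counts (at least 1 CPM in 3 or more libraries) and was not tested, which left 9 of the 10 genes.

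Jun, the main dimer partner of Fos, had 27.2, 35.6 and 26.2 CPM in the cochlea and 45.4, 43.7 and 63.2 CPM in the vestibule, without overlap. Junb, which can replace Jun in the dimer, had 9.28, 10.6 and 10.4 CPM in the cochlea and 9.48, 10.4 and 17.98 CPM in the vestibule. Junb thus differed from the cochlea in vestibule replicate 3 alone, where it reached 1.81 times the mean of the other vestibular libraries. Atf3, a stress-induced zipper protein, had 0.981, 1.28 and 0.753 CPM in the cochlea and 1.19, 1.44 and 2.83 CPM in the vestibule. In Atf3, too, vestibule replicate 3 was the highest library, and of the other vestibular values 1.19 CPM lay within the cochlear range and 1.44 CPM above it. The annotation places Junb across the opposite-strand gene Prdx2, whose counts were 8348 to 15236. Whether htseq-count used strand is not given in the sources used here, so reads over shared bases cannot be assigned with certainty.

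Egr1, a zinc finger factor and the usual companion of Fos, had 26.6, 21.1 and 42.9 CPM in the cochlea and 31.6, 33.4 and 51.2 CPM in the vestibule. Replicate 3 was highest in each tissue, and the cochlear library labelled 3 lay above both vestibular libraries labelled 1 and 2. Klf6, a zinc finger factor induced by injury, had 32.8, 40.4 and 29.8 CPM in the cochlea and 53.6, 56.3 and 91.2 CPM in the vestibule. In Klf6 the tissues did not overlap, and cochlea replicate 3 was the lowest of the 6 libraries. Klf4, a factor of epithelial differentiation, lay between 37.5 and 49.4 CPM in all 6 libraries and overlapped between the tissues.

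Dusp1, the phosphatase that ends MAP kinase signalling, had 8.18, 8.57 and 7.12 CPM in the cochlea and 12.5, 12.6 and 24.1 CPM in the vestibule. The tissues did not overlap, and vestibule replicate 3 was 1.92 times the mean of the other vestibular libraries. Dusp1 crosses Ergic1 on the opposite strand, which had 5634 to 8604 counts. Ier2 ran the other way between the tissues, with 54.0, 51.6 and 46.7 CPM in the cochlea and 36.4, 37.9 and 43.6 CPM in the vestibule, without overlap.

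**Figure D1:**
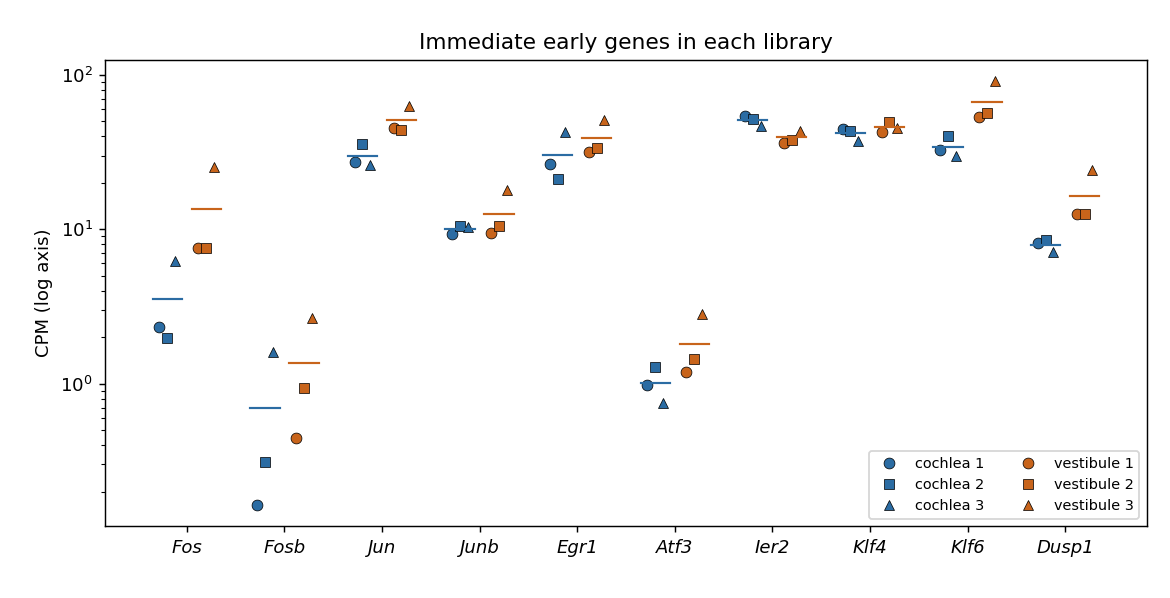
Level of each gene in each library, in CPM on a log axis, with blue symbols for the cochlea, orange symbols for the vestibule, a symbol shape for each replicate number and a line at the mean of each tissue (n = 3). Triangles, replicate 3, stand highest for Fos, Fosb and Egr1 in each tissue, whereas Ier2 and Klf4 lie within a narrow band.

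The spread between replicates differed between the genes. The SD of log2 CPM within a tissue, pooled over the tissues, was 0.95 for Fos, larger than in 98.5% of the 14723 genes tested, 0.53 for Atf3 and 0.46 for Egr1. At the other end it was 0.12 for Ier2 and 0.12 for Klf4, larger than in 16.1% of genes for each. The median over the 9 genes tested was 0.36, beside 0.22 over all genes tested, with 0.42 beside 0.18 in the vestibule and 0.23 beside 0.22 in the cochlea. Fosb, which was not tested, had 1.46. Low counts add to this spread, and the abundance of Fosb and Atf3 was the lowest of the 10.

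Seen library by library, replicate 3 stood out in the vestibule. In that library 9 of the 10 genes were the highest of the 3 vestibular values, all but Klf4, or 8 of the 9 genes tested. Of all 14723 genes tested, 4265 were highest there. For 7 of the 10 (Fos, Fosb, Junb, Egr1, Atf3, Klf6 and Dusp1) this library lay at least 1.5-fold above each of the other vestibular libraries, or 6 of the 9 genes tested. Of all genes tested, 0.706% did so. The median log2 ratio of vestibule replicate 3 to the mean of the other 2 libraries was 0.79 over the 10 genes and -0.10 over all genes tested. The fold was chosen after the values had been seen, and a comparison of single libraries has no replicate.

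In the cochlea, replicate 3 was raised for fewer of them. Fos, Fosb and Egr1 lay at least 1.5-fold above each of the other cochlear libraries, at 2.91, 6.76 and 1.80 times their mean, whereas 7.46% of all genes tested did so. The other genes did not follow: Atf3, Klf6, Jun, Dusp1, Klf4 and Ier2 were at 0.665, 0.814, 0.834, 0.850, 0.854 and 0.885 times the mean of the other 2 libraries, and Junb was at 1.05 times. The 3 genes raised in cochlea replicate 3 were thus part of the 7 raised in vestibule replicate 3, and Klf6, Dusp1, Atf3 and Junb were raised only in the latter. The 6 skeletal muscle markers were all highest in cochlea replicate 3, led by Acta1 at 147 CPM, and none was raised in vestibule replicate 3, where they summed to 9.34 CPM. Of these markers only Myh3 was at 0, in cochlea replicate 2. The 5 neuronal markers were all lowest of the cochlear libraries there. The part of muscle or neuronal RNA in the cochlear result was not tested.

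**Figure D2:**
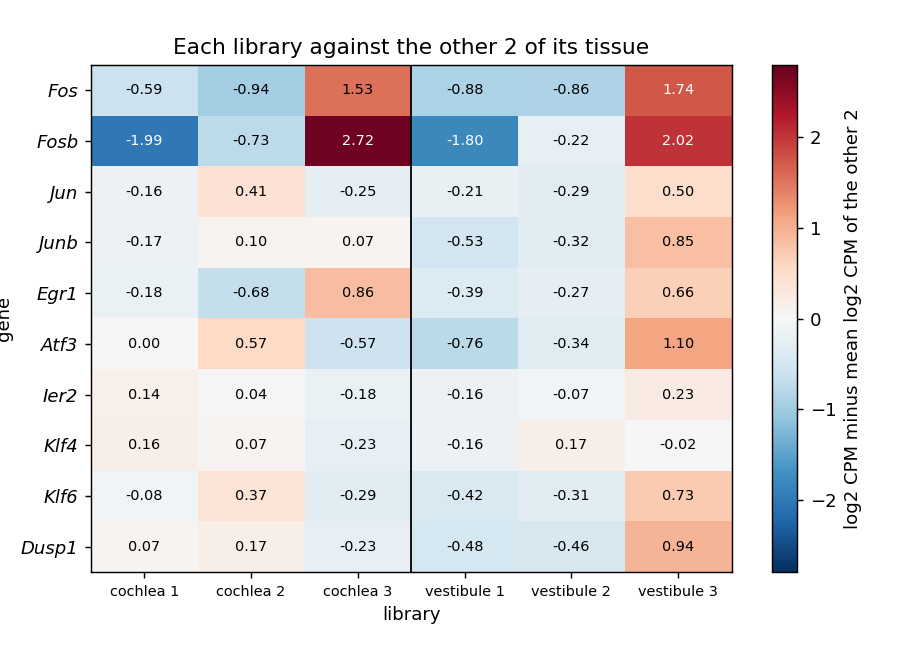
Log2 CPM of each gene in each library minus the mean log2 CPM of the other 2 libraries of its tissue, with red for higher and blue for lower values and a line between the tissues. Vestibule replicate 3 is red for all genes but Klf4, and cochlea replicate 3 is strongly red only for Fos (1.53), Fosb (2.72) and Egr1 (0.86).

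Markers of other cell types were set beside vestibule replicate 3. The 6 endothelial markers summed to 417 CPM there and to 541 and 384 CPM in the other vestibular libraries, the 6 mesenchymal markers to 7756 against 8324 and 7154 CPM, and the 6 macrophage markers to 352 against 327 and 319 CPM. Thus the summed endothelial and mesenchymal levels lay within the range of the other vestibular libraries, while the macrophage level was slightly above it. The 4 Schwann cell markers summed to 1164 CPM against 1039 and 897 CPM, also highest in replicate 3. Melanocyte markers (317 against 282 and 256 CPM) and supporting cell markers (2803 against 2682 and 2332 CPM) were highest there as well. The sums of hair cell markers (683 against 916 and 722 CPM), red blood cell markers (475 against 527 and 637 CPM) and cartilage markers (12970 against 16370 and 13560 CPM) were lowest there. Those of neurons, skeletal muscle and smooth muscle lay between the other libraries. Of the hair cell markers, Otof (306.9 against 530.5 and 331.9 CPM) and Myo7a (73.7 against 120.1 and 103.9 CPM) were lowest there. Pou4f3 (89.3 against 67.5 and 78.1 CPM), Gfi1 (98.4 against 95.5 and 92.7 CPM) and Lhfpl5 (22.9 against 17.6 and 17.8 CPM) were highest there, and Espn lay between. The part of these cells in the rise of the immediate early genes was not tested.

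For the comparison of tissues, counts were fitted by the quasi-likelihood method of edgeR, and a positive log2 fold change means a higher level in the vestibule. At an FDR of 0.05, 2 of the 9 genes tested, Klf6 and Dusp1, were higher in the vestibule, where 15.8% of all 14723 genes were, and 1, Ier2, was higher in the cochlea, where 11.6% of all genes were. The number called was therefore near the background. In 4 genes (Fos, Jun, Klf6 and Dusp1) all vestibular libraries lay above all cochlear ones, beside 27.5% of all genes, and in Ier2 all lay below, beside 14.3%. The median log2 fold change of the 9 genes was 0.66, and that of all genes tested 0.01.

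Klf6 averaged 34.3 ± 5.49 CPM in the cochlear and 67.0 ± 21.0 CPM in the vestibular libraries (SD, n = 3 each). Its log2 fold change was 0.85 with a standard error of 0.25, and the p adjusted by Benjamini-Hochberg in edgeR (adjusted p = 0.0362) passed. For Dusp1 the means were 7.96 ± 0.75 and 16.4 ± 6.67 CPM, and the log2 fold change 0.94, its standard error being 0.30 (edgeR, adjusted p = 0.0472). Ier2 fell from 50.7 ± 3.71 to 39.3 ± 3.78 CPM, by -0.48 on the log2 scale, its standard error being 0.14 (edgeR, adjusted p = 0.0378). These 3 calls lay close to the threshold. When single libraries were dropped, the adjusted edgeR p ran from 0.0243 to 0.109 for Klf6, from 0.0321 to 0.115 for Dusp1 and from 0.0237 to 0.176 for Ier2. Klf6 and Dusp1 were called only without vestibule replicate 1 or 2, and Ier2 only without replicate 3 of either tissue. With library sizes alone in place of TMM scaling, which shifts the median of all genes to 0.12, Ier2 was not called (edgeR, adjusted p = 0.0655), nor was it with a filter of 10 CPM (edgeR, adjusted p = 0.0521). With RLE factors Dusp1 was not called (edgeR, adjusted p = 0.0509).

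The largest difference was that of Fos, 3.52 ± 2.38 CPM in the cochlea and 13.5 ± 10.3 CPM in the vestibule, and it did not pass the test at 1.85 on the log2 scale, its standard error being 0.60 (edgeR, adjusted p = 0.0509). Its call turned on single libraries, on the filter and on the scaling. It was called without a filter (edgeR, adjusted p = 0.0066) and with library sizes alone (edgeR, adjusted p = 0.0479). It was not called with RLE factors (edgeR, adjusted p = 0.0517) or with DESeq2 (DESeq2, adjusted p = 0.0602). Without cochlea replicate 3 the log2 fold change was 2.53 and Fos was called (edgeR, adjusted p = 0.0151), and it was also called without vestibule replicate 1 (edgeR, adjusted p = 0.0397) or 2 (adjusted p = 0.0450). It was not called in the other 3 such fits, with 0.97 without vestibule replicate 3 (edgeR, adjusted p = 0.151), 1.62 without cochlea replicate 1 (adjusted p = 0.151) and 1.58 without cochlea replicate 2 (adjusted p = 0.18). Without replicate 3 of both tissues, an alternative added after the values were seen, it was 1.64 (edgeR, adjusted p = 0.00137): the 2 remaining libraries of each tissue stood at 2.33 and 1.98 CPM and at 7.55 and 7.59 CPM.

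Jun had a log2 fold change of 0.66 (standard error 0.22, edgeR, adjusted p = 0.0516) and was called in the vestibule only when cochlea replicate 2 was left out, among the 6 such fits. It was also called with DESeq2, with library sizes alone, without a filter and with the 10 CPM filter. Atf3 (0.73, standard error 0.41), Egr1 (0.26, standard error 0.29), Junb (0.22, standard error 0.28) and Klf4 (0.01, standard error 0.14, but -0.009 with RLE factors) had adjusted edgeR p-values of 0.229, 0.543, 0.600 and 0.968. For 8 of the 9 genes, all but Klf4, the lowest log2 fold change among the fits with 1 library left out came without vestibule replicate 3. Without it Jun stood at 0.44, Klf6 at 0.53, Dusp1 at 0.51 and Atf3 at 0.23, Egr1 at -0.03 and Junb at -0.16.

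**Figure D3:**
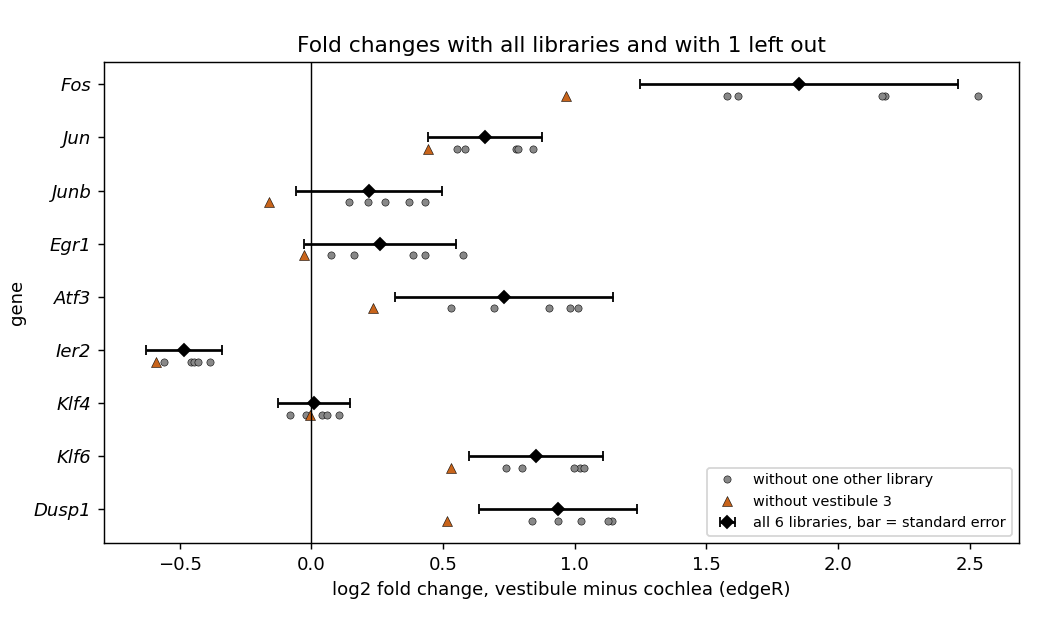
Log2 fold change, vestibule minus cochlea, of the 9 genes tested, with black diamonds and standard errors for all 6 libraries, grey points for fits without 1 library and orange triangles for the fit without vestibule replicate 3. The triangle lies at the left end for all genes but Klf4, and that of Fos stands at 0.97 against 1.85 with all libraries.

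Markers of several cell types differed between the tissues along with these genes. Of the 6 hair cell markers, with the sums given above, 4 were called higher in the vestibule. The endothelial markers summed to 76.8 to 126 CPM in the cochlea and 384 to 541 CPM in the vestibule, with 5 of 6 called higher in the vestibule. For macrophages the sums were 85.2 to 101 and 319 to 352 CPM, with 6 of 6 called, for melanocytes 30.6 to 59.5 and 256 to 317 CPM, with 4 of 4 called, and for smooth muscle and pericytes 72.7 to 94.5 and 164 to 197 CPM, with 4 called of 4 tested. Mesenchymal markers summed to 4634 to 5453 and 7154 to 8324 CPM, with 2 of 6 called higher in the vestibule and 1 in the cochlea. Of the 4 Schwann cell markers, which summed to 436 to 548 and 897 to 1164 CPM, 2 were called higher in the vestibule. Other markers ran the way of Ier2: 5 of 6 supporting cell markers were called higher in the cochlea and the other in the vestibule (sums of 2437 to 3299 and 2332 to 2803 CPM), and 2 of 5 neuronal markers were called higher in the cochlea. None of these markers was at 0 in any library. Their part in the differences of Fos, Jun, Klf6, Dusp1 and Ier2 was not tested.

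A further list of 32 immediate early genes was read from the same fit, of which 30 passed the filter. Of these, 9 were called higher in the vestibule and 3 in the cochlea, with a median log2 fold change of 0.39, beside 15.8% and 11.6% of all genes tested. The 3 of 30 toward the cochlea were near that share. The largest differences among them were in Nr4a3, an orphan nuclear receptor, which rose from 5.43 ± 1.25 CPM in the cochlea to 55.3 ± 11.2 CPM in the vestibule (log2 fold change 3.22, edgeR, adjusted p = 1.3e-05), in Klf2, a factor known from endothelium, with 2.04, and in Ccn2, a matrix-associated target of serum response factor and YAP, with 1.78 (standard error 0.52). The value of Ccn2 rested on vestibule replicate 3: without that library it was 0.85 and not called (edgeR, adjusted p = 0.0519), and it was called in 2 of the 6 fits with 1 library left out. Nr4a3 and Klf2 were called in all 6, with 3.36 and 1.86 without vestibule replicate 3. In Nr4a3 the libraries were not ordered as in Fos: they had 63.2, 60.2 and 42.5 CPM in the vestibule, the lowest being replicate 3.

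In vestibule replicate 3, 3 of these 32 genes lay at least 1.5-fold above each other vestibular library, or 9.38% beside 0.706% of all genes tested. They were Ccn1, Ccn2 and Sgk1, at 2.54, 3.49 and 1.99 times the mean of the other 2. Ccn1, a secreted matrix protein and relative of Ccn2, had 23.3, 30.5 and 24.9 CPM in the cochlea and 61.8, 61.7 and 157 CPM in the vestibule. Ccn2 had 36.2, 53.8 and 30.5 CPM and 70.2, 90.4 and 280 CPM. Sgk1, a kinase induced by serum and glucocorticoids, had 69.0, 80.9 and 59.0 CPM and 94.4, 110 and 204 CPM. None of the 3 was raised in cochlea replicate 3, where they stood at 0.927, 0.677 and 0.786 times the mean of the other cochlear libraries. The median log2 ratio of vestibule replicate 3 to the other 2 libraries over the 32 genes was 0.12.

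The 9 other MAP kinase phosphatases, relatives of Dusp1, went in both directions. Dusp2 (log2 fold change 1.2), Dusp4 (1.18) and Dusp6 (0.65), the last 2 being known feedback inhibitors of ERK, were called higher in the vestibule, and Dusp7 (-0.56) and Dusp10 (-0.82) in the cochlea. These are 3 and 2 of 9, where 15.8% and 11.6% of all genes tested were called. Dusp10 was called in 2 of the 6 fits with 1 library left out, and Dusp2 could be fitted in only 3 of them. None of the 9 lay 1.5-fold above the other libraries of its tissue in any library, where 0.367% to 7.46% of all genes tested did so per library. Dusp4, with 21.4, 21.9 and 21.7 CPM in the vestibule, showed no rise in replicate 3.

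Of 19 kinases and factors that induce immediate early genes, 2 were called higher in the vestibule, Srf, which encodes serum response factor itself (0.42), and the kinase gene Rps6ka2 (0.38). Another 2 were called higher in the cochlea, the serum response factor partner Elk1 (-0.64) and the kinase gene Rps6ka3 (-0.50). With 1 library left out, Elk1 was called in 6 of 6 fits and Rps6ka3 in 1. Both counts were at or below the shares of all genes tested, 15.8% and 11.6%. The vestibular calls rested on the settings: there were 0 with RLE factors, without a filter and in 5 of the 6 fits with 1 library left out, and 1 without cochlea replicate 3. None of the 19 was raised 1.5-fold in vestibule replicate 3, where 0.706% of all genes were. In cochlea replicate 3, 2 of the 19 were raised 1.5-fold, or 10.5%, which was near the 7.46% of all genes. They were Mrtfa, a partner of serum response factor, at 1.87 times and Elk4, another partner, at 1.58 times the mean of the other cochlear libraries. Another 1 of the 19 lay at least 1.5-fold below both other cochlear libraries, beside 3.38% of all genes.

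Heat shock genes were examined as another class of stress response. Of 14 genes, Hspa1a (0.87), Hspb1 (1.16) and Hsph1 (0.44), which encode inducible chaperones, were called higher in the vestibule and none in the cochlea (edgeR), with a median log2 fold change of -0.06, where 15.8% and 11.6% of all genes tested were called. With DESeq2, 1 heat shock gene was called higher in the cochlea, and at an unadjusted edgeR p under 0.05 there was 1, Hspd1 (log2 fold change -0.38). That threshold added Hspa1b (0.53) and Hsf1 (0.60) toward the vestibule. Of all 14723 genes tested, 5730 passed it in either direction. With 1 library left out, Hspb1 was called in 6 of 6 fits, and Hspa1a and Hsph1 in 1 each. Hspa1a, the classic inducible HSP70 gene, was at 1.35, 1.46 and 1.92 CPM in the cochlea and 2.73, 4.09 and 2.59 CPM in the vestibule, and so was not highest in vestibule replicate 3. Hspa1a and its near-identical copy Hspa1b share reads, so the split of counts between them is uncertain. The median log2 ratio of that library to the others was 0.08 over the 14 genes.

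Among 10 genes of the integrated stress response, which slows translation under amino acid or protein folding stress, Atf4, its central factor (0.48), was called higher in the vestibule, and Asns, asparagine synthetase (-0.997), and Sesn2, a regulator of mTORC1 (-0.77), in the cochlea. With 1 library left out, Asns was called in 6 of 6 fits, Sesn2 in 5, all but that without vestibule replicate 2, and Atf4 in 4, not without cochlea replicate 1 or vestibule replicate 2. Atf4 was also not called without replicate 3 of both tissues (edgeR). The shares of all genes tested were 15.8% and 11.6%, so that 1 of 10 toward the vestibule lay below the background. No gene of this list was raised 1.5-fold in vestibule replicate 3, and their median log2 ratio there was 0.03.

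**Figure D4:**
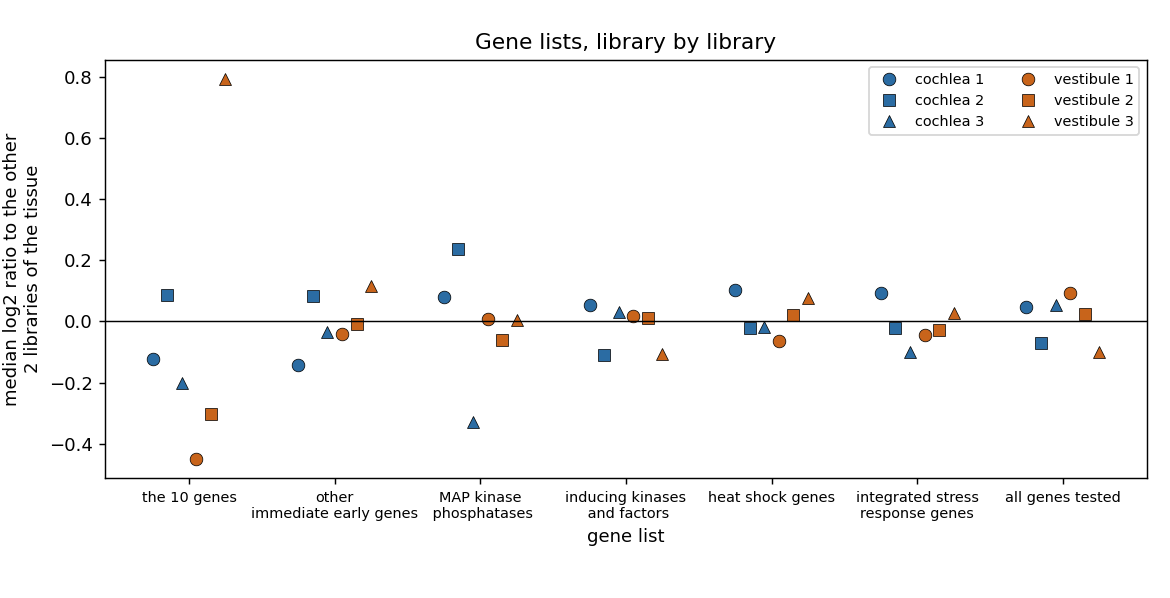
Median over each gene list of the log2 ratio of a library to the mean of the other 2 libraries of its tissue, with blue for the cochlea, orange for the vestibule and a symbol for each replicate. Vestibule replicate 3 stands at 0.79 for the 10 immediate early genes and between -0.10 and 0.12 for the other lists and all genes tested.

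The pattern of Fos over the 6 libraries was compared with that of each other gene tested, by the root mean square of the differences after each gene's log2 CPM was centred on its mean. The 5 closest genes were Dpep1, a membrane dipeptidase gene (0.34), ENSMUSG00000078493 (0.43), Lims2, a focal adhesion adaptor gene (0.47), 1700007K13Rik (0.49) and Ly6a, a surface antigen gene known from stem cells and endothelium (0.51). Dpep1 had 0.777, 0.833 and 1.23 CPM in the cochlea and 2.5, 2.73 and 7.42 CPM in the vestibule. Ranked among the 10 genes alone, Dusp1 was the closest of those tested (0.79, place 405 of 14722), followed by Klf6 (0.85, place 743), Egr1 (0.86, place 767), Jun (0.93, place 1312), Atf3 (0.94, place 1398) and Junb (0.99, place 2073). Klf4 (1.21, place 7512) and Ier2 (1.36, place 11807) were far from it. Fosb, not ranked because it was not tested, had a difference of 0.69.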

How the data were processed

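Poly(A) RNA was sequenced as 100 bp paired ends from 3 cochlear and 3 vestibular libraries made with a stranded kit. Per the labels and methods, the authors aligned reads with TopHat2 2.1.0 to GRCm38 and deposited whole counts per Ensembl gene from HTSeq 0.5.4p5, without normalization. A further deposited table holds the authors' log2 RPKM values of 14722 genes, made with edgeR 3.4.2, and no column of it was left without a sample (0). The 5 summary lines of each count file, 18.5% to 20.6% of its total, stayed out of library sizes and tests. Of the 39179 gene identifiers, 37607 had a symbol in GENCODE vM21, whose release is not the one counted on.

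After a filter that kept genes reaching 1 CPM in 3 libraries, edgeR 4.0.16 was run in R 4.3.3 (quasi-likelihood test, TMM scaling, Benjamini-Hochberg adjustment over all genes tested, FDR of 0.05), with tissue as the only term. The procedure was tested on simulated data. Log2 CPM used a prior count of 0.5. DESeq2 1.42.0, other scalings and filters and leaving out libraries were the alternatives. The 10 genes, the lists and the markers were chosen with earlier results of these data known. Genes were named by rule: the 10, the 3 largest differences among the called genes of each other list (all where 5 or fewer were called), and the 5 closest to Fos. Ccn1, Sgk1, Fosl2, Jund, Hspd1, Hspa1b, Hsf1, Mrtfa and Elk4 were named after their values were seen. Figures were drawn with matplotlib 3.10.9.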

Additional observations from a re-analysis of the deposited data

How the results depend on the processing

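Of the 9 genes tested, Klf6 was called in 7 of 13 alternatives, Dusp1 and Ier2 in 6 of 13, Jun in 5 of 13 and Fos in 7 of 12, each always in the same direction, and Junb, Egr1, Atf3 and Klf4 in none. Junb reversed without vestibule replicate 3 (-0.16) and without replicate 3 of each tissue (-0.17), and Egr1 without vestibule replicate 3, with values from -0.026 to 0.575 over the 6 single libraries left out and from -0.16 to 0.43 for Junb. Klf4, near 0 throughout, was -0.009 with RLE factors and with DESeq2, -0.013 without a filter, -0.106 without replicate 3 of each tissue, and -0.081 to 0.106 with 1 library left out. The cause was not tested. The 10 CPM filter removed Fos and Atf3.

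Of the immediate early genes, 4 were called higher in the vestibule with library sizes alone and without a filter, 1 with RLE factors, 1 with replicate 3 of each tissue left out, and 0 to 3 with 1 library left out. The number higher in the cochlea was 0 with library sizes alone and with the 10 CPM filter, and 0 to 1 with 1 library left out.

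Among all genes, the 10 CPM filter, which tests fewer genes, gave 1041 calls toward the cochlea and 1379 toward the vestibule. With 1 library left out there were 925 to 1863 and 1342 to 2694, and with library sizes alone the share of calls higher in the vestibule was 68.8% instead of 57.6%.

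In the other lists, calls higher in the cochlea were 0 to 3 with 1 library left out for the phosphatases, 1 with library sizes alone and 4 with DESeq2 for the inducing kinases and factors (1 to 2 with 1 library left out), 1 with RLE factors and with DESeq2 and 3 without replicate 3 of each tissue for the heat shock genes (0 to 1), and 1 to 2 with 1 library left out for the integrated stress response. Calls higher in the vestibule were 0 with RLE factors and without a filter for the inducing kinases and factors (0 to 1), 1 to 3 with 1 library left out for the heat shock genes, and 2 with library sizes alone and 0 without replicate 3 of each tissue for the integrated stress response (0 to 2).

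The replicate numbers are not stated to pair the libraries, and deviations of same-numbered libraries correlated at -0.176, -0.260 and -0.476 across genes. Because the deviations within a tissue depend on each other, these correlations cannot tell whether same-numbered libraries share mice or a dissection. With the replicate number as a block, 1009 genes were called higher in the cochlea, and of the immediate early genes only Fos was called (log2 fold change 1.77, edgeR, adjusted p = 0.00352), 1 in the vestibule and 0 in the cochlea. Klf6, Dusp1 and Ier2 were thus not called with the block (edgeR, adjusted p = 0.104, 0.131 and 0.134). The block gave 1 phosphatase and 1 inducing factor higher in the cochlea, and 0 inducing factors, 1 heat shock gene and 0 integrated stress response genes higher in the vestibule. Depth limits Fosb and Atf3 most.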
